A study of Mus musculus with 8 samples.

Results

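Messenger RNA of 31 genes typical of the fibroblasts of the meninges was examined in cerebral cortex of mice with a point mutation in Ago2. The genes were chosen by name, as a list of leptomeningeal and perivascular fibroblast genes without the collagens, and all 31 were found among the 55416 genes of the count table. The L192P group holds 4 libraries from mice that carry the L192P change, knocked in, on 1 of their Ago2 alleles (genotype AGO2_L192P/+), and the WT group holds 4 libraries from wild-type mice. The changed residue lies in the hinge of Argonaute 2, the protein that carries miRNA guides to their target mRNAs. The line was made by Cas9 editing of C57BL/6JUke embryos, and founders were crossed with C57/Bl6 wild-type mice, a germline change not limited to any cell type. Neither treatment, age nor sex is given in the labels, and the labels do not say whether each library is 1 animal, so the p-values below measure the spread between these libraries. The comparison asked which of these transcripts differed in abundance between the genotypes.

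The leptomeninges, that is the pia and the arachnoid, cover the cortex with thin sheets of fibroblasts, and related fibroblasts follow larger blood vessels into the tissue. These cells lay down the collagen-rich matrix of the brain surface, move small molecules between cerebrospinal fluid, blood and brain, and make secreted signals such as retinoic acid, which guides cortical development. The forkhead factor Foxc1 is required for normal meninges in the embryo. A piece of cortex holds only a thin layer of such cells, and in whole tissue a difference in the number of these cells and in their RNA per cell cannot be told apart.

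Total counts ran from 20396357 to 43575900 per library, with WT replicate 2 the deepest. Replicate 1 of each genotype had almost no Xist RNA (0.934 and 1.82 normalized counts against 5185 to 7257 in the other 6 libraries). The markers of cortical excitatory neurons, led by the vesicular glutamate transporter gene Slc17a7, were present in every library, as the tissue label implies. Normalized counts are counts divided by 1 size factor per library. The 31 genes together took between 0.063% and 0.123% of the counts of a library, and Ptgds alone made up between 57.5% and 67.7% of that amount. All 31 passed the filter on low counts and received an adjusted p-value. The lowest count of any of them in any library was 4, and 5 of the 31 had a mean under 50 normalized counts, so their fold changes are coarse.

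Most of the list was higher in L192P, by a moderate amount. With DESeq2, 8 of the 31 genes (25.8%) rose at a Benjamini-Hochberg adjusted p under 0.05 and 0 fell, while 1.36% of all 18627 tested genes were called, 0.789% as higher. The called genes were Aldh1a2 and Crabp2 of retinoic acid handling, the transporter genes Slc6a13 and Slc22a6, the forkhead factor genes Foxc1 and Foxc2, the matrix gene Fmod and Ranbp3l, with fitted fold changes from 1.42 to 1.95. Another 14 genes were higher at an unadjusted p under 0.05 without passing the adjustment, which makes 22 of 31 higher at that level, against 4.94% of tested genes. The median log2 fold change of the 31 genes was 0.53, a fold of 1.45, and that of all tested genes was 0.0019. The fitted change was above 0 for 29 of the 31 genes (93.5%), against 50.6% of tested genes. The genes were proposed as a list after earlier results of these data were known, and they share their libraries, so these counts describe the list and do not test it.

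The calls depended on the statistical model. By edgeR's quasi-likelihood test 0 of the 31 genes passed, with 23 at an unadjusted p under 0.05 and adjusted p-values of the 8 called genes between 0.096 and 0.229, and only 0.314% of its tested genes were called. Limma also called 0 of the 31, as voom (16 at an unadjusted p under 0.05, lowest adjusted p 0.109) and as trend (20, 0.109), where 0.266% and 0.297% of tested genes were called. At such shares of all genes, a count of 0 among 31 is near the background. The 23 genes of edgeR and the 16 of voom at the unadjusted level include Cemip, which was lower in L192P (log2 fold change -0.24 and -0.26). The share of all tested genes at that unadjusted level was not taken for edgeR or limma. The counts of 23, 16 and 20 therefore have no background to be set against. The median log2 fold change by edgeR was 0.53, against 0.53 by DESeq2. The replicate numbers were taken to pair the libraries across genotypes, from correlations in these same data. With that number as a block in DESeq2, 4 of the 22 members given an adjusted p were called, where 4.25% of tested genes were. Aldh1a2 (adjusted p = 6.72e-05), Slc6a13 (0.00377) and Slc22a6 (0.0383) passed with the block. Crabp2 (0.076), Foxc1 (0.0552), Ranbp3l (0.059) and Fmod (0.366) did not, Foxc2 received no adjusted p there, and Ccn3 was gained at 0.0164.

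**Figure D1:**
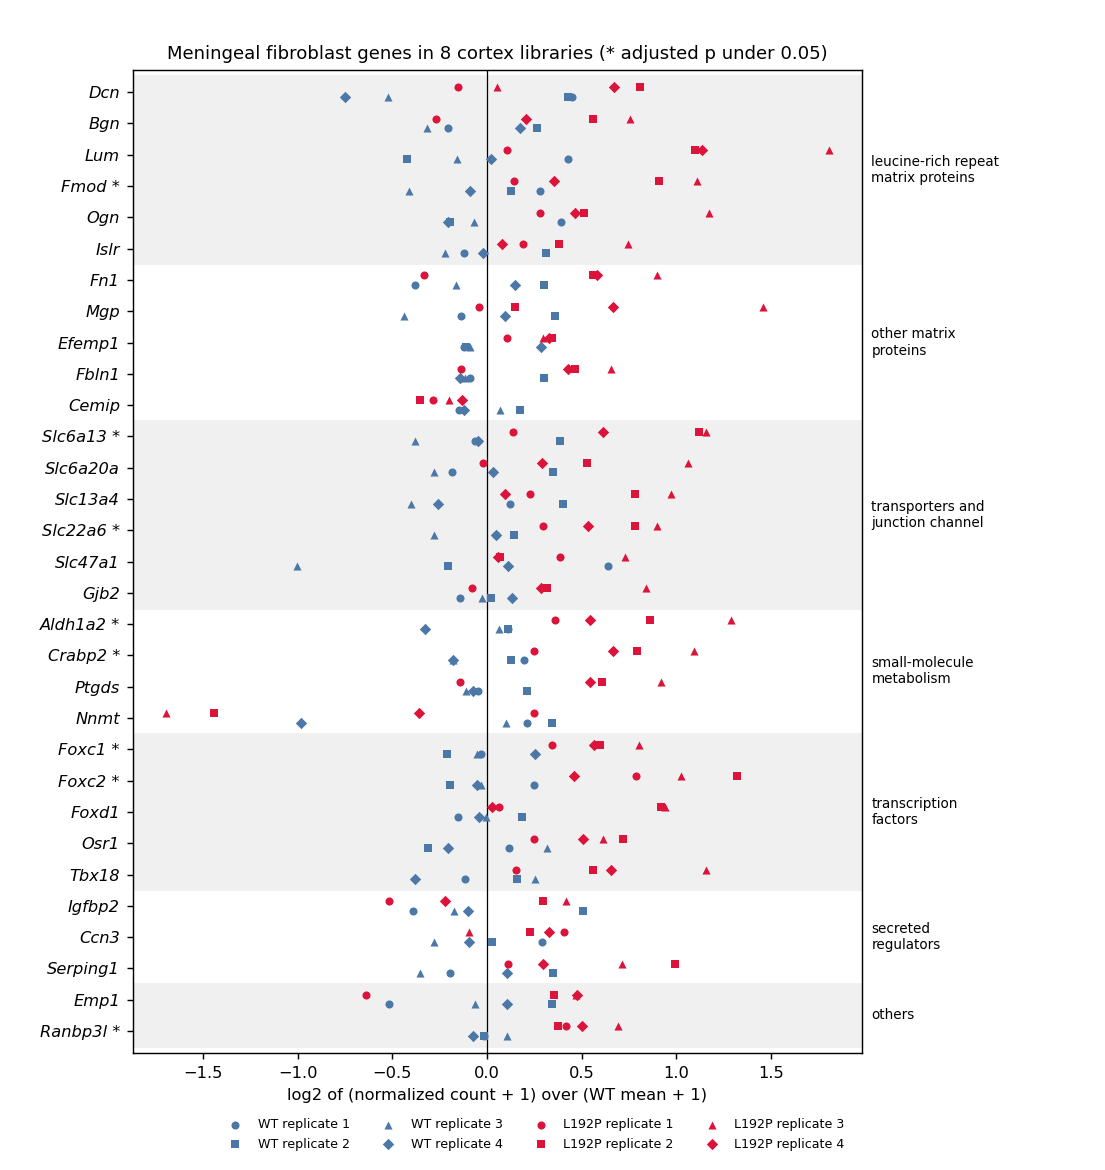
Each point is 1 library's normalized count of 1 gene, as log2 of the count plus 1 over the WT mean plus 1 (horizontal axis), with WT in blue, L192P in red, the marker shape giving the replicate number, shading the role groups and an asterisk the 8 genes with a DESeq2 adjusted p under 0.05. L192P replicate 3 (red triangles) was the highest L192P library for 22 of the 31 genes and L192P replicate 1 (red circles) the lowest for 22.

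The sequence just before the transcription start is shown for called members whose starts are listed in RefSeq, since each of them was higher in L192P. Entries were matched by symbol for 20 of the 31 genes, and for 6 of the 8 called genes. Crabp2 and Foxc2 were not among them. Each line gives the 120 bases upstream of the start on build GRCm38.p6, 5′ to 3′ on the gene's strand. Capitals mark a GC box (GGGCGG) or a CCAAT box (CCAAT) on either strand, and for Slc6a13 the most upstream of its listed starts is shown.
Aldh1a2, chr9:71215669-71215788, plus strand: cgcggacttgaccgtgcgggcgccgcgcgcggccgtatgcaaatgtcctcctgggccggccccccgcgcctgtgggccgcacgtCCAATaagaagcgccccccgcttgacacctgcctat
Slc22a6, chr19:8617876-8617995, plus strand: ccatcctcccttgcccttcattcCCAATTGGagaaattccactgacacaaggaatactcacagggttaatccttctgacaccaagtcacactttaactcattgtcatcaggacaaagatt
Slc6a13, chr6:121300168-121300287, plus strand: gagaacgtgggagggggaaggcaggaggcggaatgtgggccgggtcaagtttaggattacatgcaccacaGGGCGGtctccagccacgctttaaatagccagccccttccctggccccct
Foxc1, chr13:31806526-31806645, plus strand: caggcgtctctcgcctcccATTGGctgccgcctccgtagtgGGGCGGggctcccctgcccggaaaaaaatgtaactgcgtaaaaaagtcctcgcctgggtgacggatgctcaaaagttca
Fmod, chr1:134037134-134037253, plus strand: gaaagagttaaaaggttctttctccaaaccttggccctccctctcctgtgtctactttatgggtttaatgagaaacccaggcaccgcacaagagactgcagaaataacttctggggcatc
Ranbp3l, chr15:8967829-8967948, plus strand: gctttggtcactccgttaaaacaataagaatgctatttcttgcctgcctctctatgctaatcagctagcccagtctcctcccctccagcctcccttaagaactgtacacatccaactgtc

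No single one of these motifs was shared by the called genes. Within 250 bases before the start, a CCAAT box lay in 4 of the 6 called genes (Aldh1a2, Foxc1, Slc22a6 and Slc6a13) and in 7 of the 20 matched members, and 37.5% of 27025 genes in the table held it. In Slc6a13 it lay before another of the listed starts than the one shown. The GC box was found for 2 of the 6 (Foxc1 and Slc6a13) and for 11 of the 20, against 35.4% of all genes. The letters TATAAA were in 0 of the 6 and 2 of the 20, against 14.3%. In Slc22a6 the CCAAT box of one strand overlaps that of the other. Fmod and Ranbp3l held none of the 3 in that window.

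Both retinoic acid genes of the list rose by DESeq2 with genotype as the only term, and Aldh1a2 had the lowest adjusted p of the 31. Aldh1a2 (ENSMUSG00000013584, GRCm39 chromosome 9, 71122630 to 71203527, plus strand) encodes the enzyme that makes retinoic acid from retinaldehyde in the meninges. Its normalized counts were 291, 412, 553 and 331 in L192P replicates 1 to 4 and 244, 244, 237 and 180.3 in WT replicates 1 to 4. All L192P libraries lay above all WT libraries, with L192P replicate 3 the highest and WT replicate 4 the lowest. The mean was 397 ± 116 in L192P and 226 ± 30.9 in WT (SD, n = 4), which is a log2 fold change of 0.80 (SE 0.18, DESeq2 adjusted p 0.00195). An exact two-sided permutation test gave p = 0.0286, the smallest value that 4 against 4 libraries allow when exchanged freely. This test, like those below, did not keep the same-numbered pairs together. Exchange within pairs alone could not give a p that small. An exon of Gm3458 overlaps Aldh1a2 on the other strand, and whether reads were counted by strand is not stated.

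Crabp2 (ENSMUSG00000004885, chromosome 3, 87855973 to 87860683, plus strand) encodes a protein that carries retinoic acid within the cell to its nuclear receptors. It had 82.2, 121, 149 and 110.2 normalized counts in L192P and 79.2, 75.7, 60.8 and 60.9 in WT. The groups did not overlap, although L192P replicate 1 was only just above WT replicate 1. The log2 fold change was 0.72 (SE 0.21, DESeq2 adjusted p 0.0449). With the replicate block the DESeq2 adjusted p was 0.076, and by edgeR it was 0.169. Gm65498 overlaps Crabp2 on the opposite strand. A list of 20 genes of retinoic acid synthesis, transport, breakdown and reception, these 2 included, had 18 genes tested, of which 2 rose, Aldh1a2 and Crabp2, and 0 fell. The median log2 fold change over that list was 0.04. Among its other genes only Rxrg, a retinoid receptor gene, had an unadjusted p under 0.05 (log2 fold change -0.25, DESeq2 adjusted p 0.398).

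The remaining genes of small-molecule metabolism did not pass. Ptgds, which encodes the enzyme that forms prostaglandin D2 and a lipid carrier of the cerebrospinal fluid, was the most abundant gene of the list, also per kilobase of exon (1742 normalized counts per kilobase, ahead of Igfbp2 at 486 and Ccn3 at 381). It is made by oligodendrocytes too, whose 12 markers summed to between 105656 and 145695 normalized counts in L192P and between 108113 and 151723 in WT. Its normalized counts were 9616, 16201, 20107 and 15498 in L192P and 10262, 12316, 9845 and 10076 in WT. L192P replicate 1 lay below every WT library, and the other 3 L192P libraries lay above all of them. Its log2 fold change was 0.53 (SE 0.22, DESeq2 adjusted p 0.311), and without L192P replicate 1 the adjusted p was 2.9e-09 (range over its alternatives up to 0.711). Nnmt, the nicotinamide methyltransferase gene, was the least abundant per kilobase (4.21) and had a log2 fold change of -0.64 (95% interval -1.68 to 0.40).

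Of 6 genes for transporters and a junction channel, 2 rose, and the median log2 fold change was 0.54. Slc6a13 (ENSMUSG00000030108, chromosome 6, 121277186 to 121316121, plus strand) encodes a transporter of GABA and taurine found in the leptomeninges. It had 157, 312, 319 and 219 normalized counts in L192P and 137, 187, 109.7 and 138 in WT. Only L192P replicate 1 overlapped the WT range, below WT replicate 2. It rose by a log2 fold change of 0.81 (SE 0.22, DESeq2 adjusted p 0.0229), while the exact permutation test gave p = 0.0571. Slc22a6 (ENSMUSG00000024650, chromosome 19, 8595356 to 8605663, plus strand) encodes an organic anion transporter. Its normalized counts of 136, 191, 208 and 161 in L192P all exceeded the 115, 123, 91.2 and 115 of WT. The log2 fold change was 0.64 (SE 0.17, DESeq2 adjusted p 0.0203).

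The sulfate transporter gene Slc13a4 was the most abundant of this group by normalized count and was not called. Its libraries had 279, 411, 469 and 255 normalized counts in L192P and 259.5, 316, 180.3 and 199 in WT, so that replicates 1 and 4 of L192P lay within the WT range (log2 fold change 0.56, DESeq2 adjusted p 0.195). The imino acid transporter gene Slc6a20a had 152, 223, 323 and 189 in L192P and 136, 197, 127 and 158 in WT (0.51, adjusted p 0.323). Gjb2, the gene of the gap junction protein connexin 26, had 149, 197, 284 and 193 against 143, 160.4, 155 and 173 (0.38, adjusted p 0.452). L192P replicate 1 lay within the WT range in both genes, as did L192P replicate 4 in Slc6a20a, and L192P replicate 3 was the highest library in each. Slc47a1, an organic cation exporter gene with between 8.69 and 31.1 normalized counts, overlapped widely, with a log2 fold change of 0.35 and a 95% interval of -0.44 to 1.14.

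All 5 transcription factor genes of the list had fitted log2 fold changes between 0.55 and 0.96, and 2 of them rose. Foxc1 (ENSMUSG00000050295, chromosome 13, 31990616 to 31996459, plus strand) had 135, 160.5, 186 and 157 normalized counts in L192P and 104, 91.5, 102 and 126 in WT. Its relative Foxc2 (ENSMUSG00000046714, chromosome 8, 121842910 to 121845634, plus strand) had 46.7, 68.3, 55.3 and 37.1 in L192P and 31.9, 23.2, 26.1 and 25.8 in WT. In both genes the 4 L192P libraries were above the 4 WT libraries. Foxc1 rose by 0.60 on the log2 scale (SE 0.16, DESeq2 adjusted p 0.0255). Foxc2 rose by 0.96 (SE 0.28) and lay just inside the threshold, at 0.0489. Foxc1 also outranked Foxc2 in level, at 22.7 against 14.4 normalized counts per kilobase of exon.

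The other 3 factors were less separated. Tbx18, a T-box factor gene that mural cells also use, had 49.5, 66, 100.3 and 70.7 normalized counts in L192P and 41, 49.7, 53.2 and 33.9 in WT. Osr1, a zinc finger factor gene, had 57.9, 80.8, 74.9 and 69.5 in L192P and 52.8, 39, 60.8 and 42.1 in WT. Foxd1, another forkhead gene, had 46.7, 85.3, 86.5 and 45.5 against 40.1, 50.8, 44.5 and 43.3. In Tbx18 and Osr1 only L192P replicate 1 lay within the WT range, and in Foxd1 both L192P replicates 1 and 4 did. None of them passed, at log2 fold changes of 0.67 (adjusted p 0.243), 0.55 (0.332) and 0.55 (0.485) by DESeq2.

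Among 6 leucine-rich repeat proteins of the matrix, 1 gene rose and the median log2 fold change was 0.52. Fmod (ENSMUSG00000041559, chromosome 1, 133964992 to 133976015, plus strand) encodes fibromodulin, a small proteoglycan that binds collagen fibrils, and it was the most abundant of the 6. It had 346, 588, 677 and 401 normalized counts in L192P and 381, 343, 236 and 295 in WT. L192P replicate 1 lay within the WT range and the other 3 above it. The log2 fold change was 0.68 (SE 0.19, DESeq2 adjusted p 0.0386), and the exact permutation p was 0.0571.

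Lum, the gene of lumican, was next outside the threshold and had the largest fitted change of the list. Its normalized counts were 22.4, 45.5, 74.9 and 46.7 in L192P and 28.2, 15.3, 18.5 and 21.1 in WT, which is a log2 fold change of 1.20 (SE 0.37, DESeq2 adjusted p 0.0792). Ogn, the gene of osteoglycin, had 132, 155, 246 and 149.7 in L192P and 142, 94.3, 103 and 93.7 in WT (log2 fold change 0.65, adjusted p 0.109). For both, L192P replicate 1 was below WT replicate 1 and the other 3 L192P libraries were above every WT library. Both passed without L192P replicate 1 (Lum 0.00654, Ogn 0.0347) and without WT replicate 1 (Lum 0.0283, Ogn 0.0106), in a range of adjusted p-values over the alternatives from 0.00304 to 0.499 for Lum and from 0.00317 to 0.549 for Ogn.

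Decorin, the best known proteoglycan of this family, did not follow this order. Dcn, its gene, had 209, 409, 242 and 371 normalized counts in L192P and 319, 314, 162 and 138 in WT, and here L192P replicate 3 was not the highest. Its log2 fold change was 0.40 with a 95% interval of -0.35 to 1.15 and a DESeq2 adjusted p of 0.87. Bgn, the gene of biglycan, ran from 127 to 259 in L192P and from 123 to 185 in WT (0.36, adjusted p 0.64). Islr, which encodes a secreted protein with such repeats, had 219, 249, 322 and 202 in L192P and 176, 238, 164 and 188 in WT (0.36, adjusted p 0.429). Islr shares exon sequence with Islr2 on its own strand and with Stra6 on the other, and Ogn overlaps Cenpp, so their counts are uncertain. The same limit holds for Fn1, Slc6a20a, Slc13a4, Ptgds and Tbx18. With Aldh1a2 and Crabp2, 9 members had an exon overlap on the opposite strand.

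None of the 5 other matrix genes passed, and 4 of them had fitted changes above 0. Fn1, the fibronectin gene, had 141, 263, 332 and 266 normalized counts in L192P and 137, 219, 159 and 197 in WT (log2 fold change 0.49, DESeq2 adjusted p 0.401, and 0.00967 without L192P replicate 1, in a range up to 0.855). Fbln1, of fibulin 1, had 155, 236, 269 and 230.0 against 160.3, 210.1, 158 and 155 (0.37, adjusted p 0.456). In both genes L192P replicate 1 lay among the WT values and the other 3 L192P libraries above them. Efemp1, of a further fibulin, had 188, 222, 214 and 219 in L192P and 160.3, 162, 164 and 213 in WT (0.28, adjusted p 0.506). Mgp, of the matrix Gla protein that restrains calcification, ran from 115 to 326 in L192P, the top value again in replicate 3, and from 86.9 to 152 in WT (0.68, 95% interval -0.07 to 1.43).

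Cemip went the other way. This gene, whose protein takes part in hyaluronan breakdown, was the most abundant of these 5 by normalized count, at 244, 233, 259 and 272 in L192P and 269, 336, 313 and 274 in WT. Only L192P replicate 4 reached into the WT range. The fitted log2 fold change was -0.25 (SE 0.12), at an unadjusted p of 0.037 and an adjusted p of 0.465 by DESeq2. It was the 1 gene of the list with a fitted change below 0 at that unadjusted level.

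None of the 3 genes of secreted regulators passed with genotype as the only term, and their fitted log2 fold changes ran from 0.04 to 0.56. Ccn3, of a matricellular signalling protein also made by cortical neurons, had 2642, 2329, 1864 and 2502 normalized counts in L192P and 2436, 2028, 1642 and 1864 in WT (log2 fold change 0.23, DESeq2 adjusted p 0.567). In Ccn3 L192P replicate 3 was the lowest L192P library, and within each same-numbered pair L192P exceeded WT. Igfbp2, of an insulin-like growth factor binding protein, ran from 695 to 1327 in L192P and from 758 to 1415 in WT, with a log2 fold change of 0.04 and a 95% interval of -0.53 to 0.61. Its direction turned to -0.0037 with limma-voom and also without L192P replicates 2 or 3 or WT replicates 1 or 3 (lowest -0.11). Serping1, of the inhibitor of complement C1, had 58.9, 109, 89.9 and 67.1 in L192P and 47.4, 69.5, 42.4 and 58.5 in WT (0.56, adjusted p 0.394).

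Ranbp3l (ENSMUSG00000048424, chromosome 15, 8997242 to 9068799, plus strand), of a Ran-binding protein, was the called gene with the least spread. Its normalized counts were 185, 179.8, 224 and 196 in L192P and 137, 137, 149 and 131 in WT, with every L192P library above every WT library. The means were 196 ± 19.6 and 138 ± 7.48 (SD, n = 4), which is a log2 fold change of 0.50 (SE 0.13, DESeq2 adjusted p 0.0206). Emp1, of a membrane protein, ran from 14.9 to 33.5 in L192P and from 16.4 to 30.5 in WT (0.22, 95% interval -0.49 to 0.92).

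**Figure D2:**
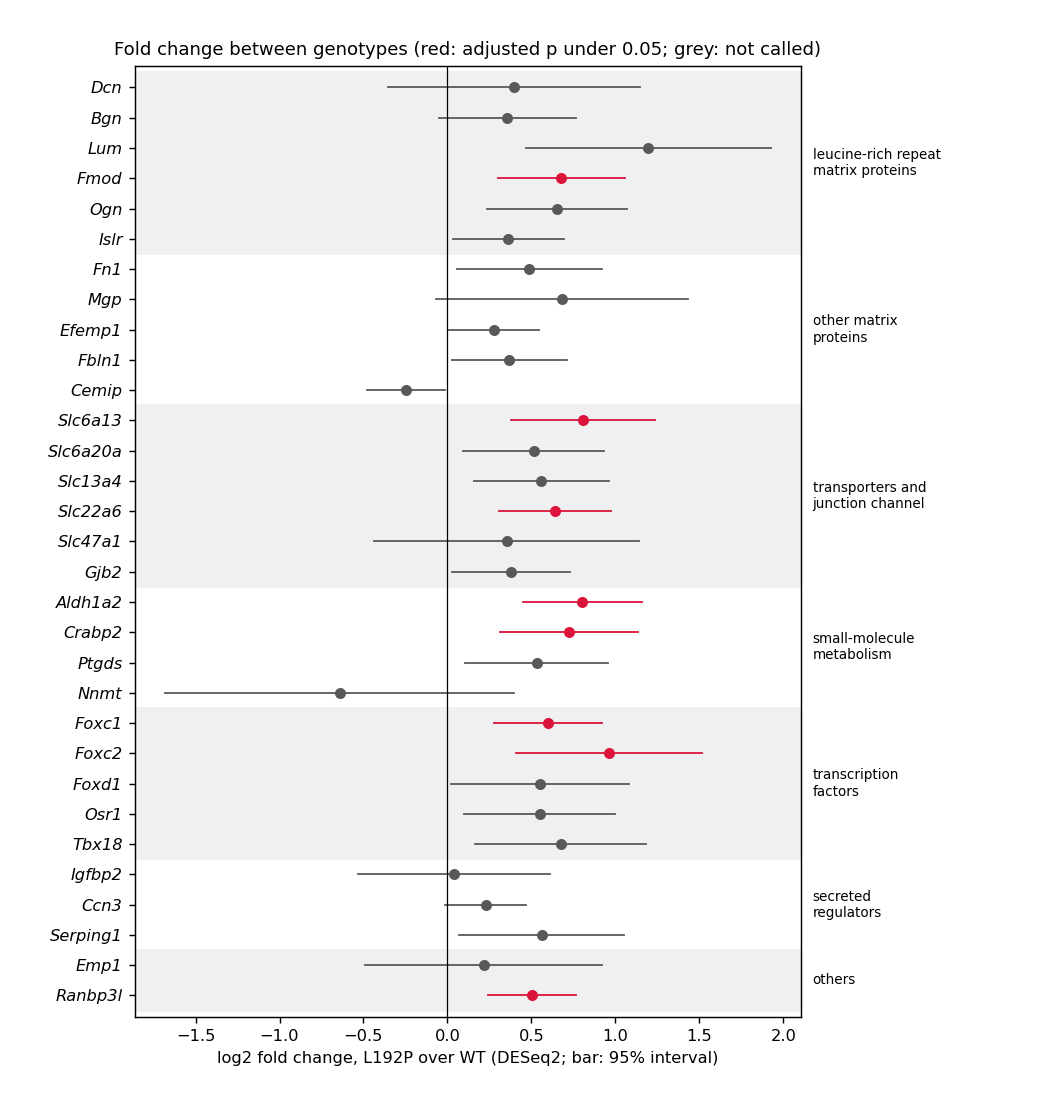
Points give the DESeq2 log2 fold change of L192P over WT (horizontal axis) for each of the 31 genes, by role group, with 95% intervals as bars and the 8 called genes in red. The points run from -0.64 (Nnmt) to 1.20 (Lum), and 29 of them lie above 0.

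Seen library by library, the difference was uneven. Within same-numbered pairs, L192P was above WT for 20 of the 31 genes in pair 1, 27 in pair 2, 29 in pair 3 and 28 in pair 4. The median log2 ratio over the genes was 0.10, 0.39, 1.03 and 0.44 in pairs 1 to 4. The pair of low Xist thus showed the smallest difference over these genes and pair 3 the largest. The same values over all tested genes were not taken for single pairs. L192P was above WT in all 4 pairs for 18 of the 31 genes (58.1%), against 12.3% of tested genes. The normalized counts of all L192P libraries exceeded those of all WT libraries for 6 of the 31 (Aldh1a2, Crabp2, Slc22a6, Foxc1, Foxc2 and Ranbp3l, 19.4%), against 3.01% of tested genes.

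Leaving out the low-Xist pair gave 10 called genes of 28 with an adjusted p and a median log2 fold change of 0.67, in a fit that called 3.46% of all tested genes. Of the 8 called genes 6 were among them, and Foxc2 (0.0692) and Ranbp3l (0.0739) were not. Ptgds (0.00201), Ogn (0.00317), Fn1 (0.0271) and Lum (0.00304) were the added genes. Leaving out L192P replicate 1 alone gave 11 called genes, where 1.61% of tested genes were called. Leaving out L192P replicate 2 (0.747% of tested genes called), L192P replicate 3 (0.76%) or WT replicate 3 (0.69%) gave 1, Aldh1a2 in each case. Without L192P replicate 3, the highest library, the median log2 fold change was 0.39, and that of Aldh1a2 was 0.60.

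**Figure D3:**
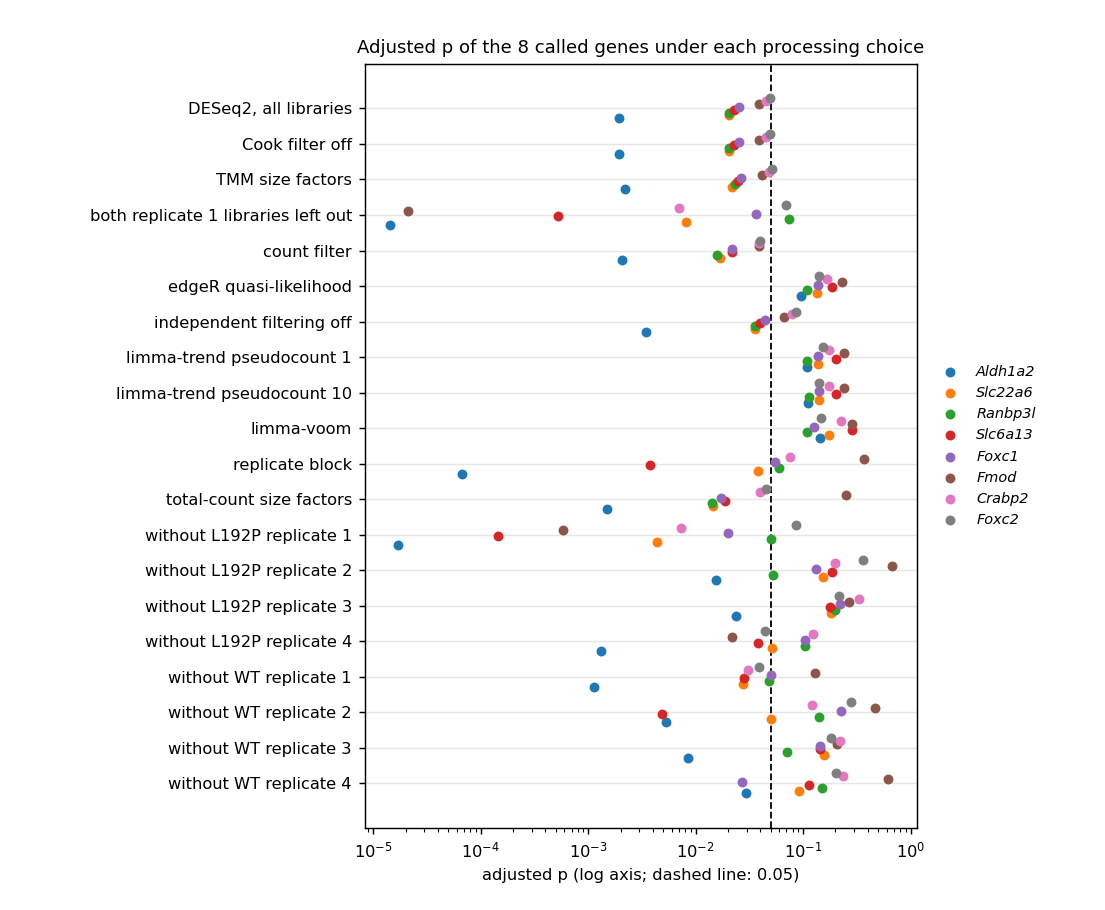
Points give the adjusted p (log axis, dashed line at 0.05) of the 8 called genes in the DESeq2 comparison of all libraries and under each of the 19 alternatives. Aldh1a2 stays left of the line in all 15 DESeq2 alternatives, and all 8 genes lie right of it with edgeR and limma.

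How far each of the 8 genes relied on single libraries is shown by DESeq2 fits that leave 1 out. Aldh1a2 passed in all 8 such fits, with adjusted p-values from 1.69e-05 to 0.0294. Slc6a13 was lost without L192P replicates 2 (0.184) or 3 (0.177) or WT replicates 3 (0.143) or 4 (0.112). Slc22a6 was lost without L192P replicates 2 (0.152), 3 (0.181) or 4 (0.0513) or WT replicates 2 (0.0503), 3 (0.157) or 4 (0.0915). Both transporter genes passed without replicate 1 of either genotype. Foxc1 was lost without L192P replicates 2 (0.132), 3 (0.22) or 4 (0.105) or WT replicates 1 (0.0505), 2 (0.226) or 3 (0.142), and Ranbp3l without L192P replicates 2 (0.0526), 3 (0.2) or 4 (0.103) or WT replicates 2 (0.142), 3 (0.0703) or 4 (0.15). Crabp2 was lost without L192P replicates 2 (0.198), 3 (0.329) or 4 (0.125) or WT replicates 2 (0.12), 3 (0.219) or 4 (0.236). Fmod and Foxc2, like Slc22a6, Foxc1, Ranbp3l and Crabp2, were each lost in 6 of the 8 fits. Fmod failed without L192P replicates 2 (0.672) or 3 (0.269) or any WT library (0.13 to 0.613 for replicates 1 to 4), and Foxc2 without L192P replicates 1 (0.0861), 2 (0.357) or 3 (0.215) or WT replicates 2 (0.282), 3 (0.183) or 4 (0.2). Scaling alone also ended single calls, that of Foxc2 with TMM size factors (0.0513) and that of Fmod with total-count size factors (0.248). In all of these fits the 8 genes were higher in L192P.

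Other genes of meningeal fibroblasts gave a smaller difference, mostly in the same direction. Of a further 52 genes, 51 were tested, 43 had fitted changes above 0, and the median log2 fold change was 0.22. In this list 3 of 51 genes rose and 0 fell, against 0.789% of all tested genes called higher and 1.36% called in either direction. At an unadjusted DESeq2 p under 0.05, 11 were higher and 1 lower, against 4.94% and 4.49% of tested genes. All L192P libraries exceeded all WT libraries for 7 of the 51, against 3.01% of tested genes. Zic1, of a zinc finger factor used in meninges but also in thalamus and cerebellum, had 1345, 1495, 1065 and 1143 normalized counts in L192P and 834, 574, 815 and 440.2 in WT. Its neighbour Zic4 had 142, 203, 136 and 170.1 against 118, 87.6, 86.9 and 81.9, and Bmp7, of a secreted bone morphogenetic protein, had 288, 364, 377 and 304 against 233, 258, 219 and 225. The groups did not overlap in any of the 3 genes. By DESeq2 the log2 fold change was 0.92 for Zic1 (adjusted p 0.0124), 0.79 for Zic4 (0.00345) and 0.50 for Bmp7 (0.00881). By edgeR Zic1 passed (0.0482, and 0.0403 by limma-voom), and Zic4 (0.0823) and Bmp7 (0.0881) did not. Exons of Zic1 and Zic4 overlap on opposite strands, so their counts are uncertain. Among the L192P libraries both Zic genes were highest in replicate 2 and lowest in replicate 3. Zic1 was lost without L192P replicates 1 (0.0644) or 2 (0.109) or WT replicate 2 (0.132), Zic4 without L192P replicate 2 (0.0713), and Bmp7 without L192P replicates 2 (0.0925) or 3 (0.104) or WT replicates 3 (0.0798) or 4 (0.0736). The alternatives together gave Zic1 adjusted p-values from 8.05e-05 to 0.132, with ranges of 0.000356 to 0.0897 for Zic4 and 0.00321 to 0.124 for Bmp7. Apod, of a lipid carrier, was the most abundant gene of the 52, with a log2 fold change of 0.01 (adjusted p 0.998).

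Lists for neighbouring cell types and for the tissue at large were set beside these. Of 15 collagen genes, made largely by the same fibroblasts, 0 passed and 13 had fitted changes above 0, with a median log2 fold change of 0.17. The 10 arachnoid barrier genes, Slc47a1 among them, had a median of 0.03, the 17 choroid plexus genes of 0.06, the 10 pericyte genes of 0.03 and the 6 tested smooth muscle genes of -0.0050. In the 12 endothelial genes it was 0.36, in the 10 border macrophage genes 0.19, in the 12 microglia genes 0.23, in the 9 tested ependymal genes 0.16 and in the 7 erythroid genes 0.25. The medians were below 0 for the 12 oligodendrocyte genes (-0.12), the 11 astrocyte genes (-0.01) and the 12 genes of cortical excitatory neurons (-0.13). Fitted changes were above 0 for 10 of the 12 endothelial, 11 of the 12 microglia, 9 of the 9 ependymal and 7 of the 10 border macrophage genes. They were above 0 for 5 arachnoid barrier, 10 choroid plexus, 6 pericyte, 3 smooth muscle and 4 erythroid genes. They were below 0 for 11 oligodendrocyte, 7 astrocyte and 10 cortical excitatory genes. Of all tested genes 50.6% were above 0. By DESeq2, edgeR and limma-voom 0 genes of these lists were called. At an unadjusted p under 0.05 by DESeq2, 3 collagen genes, 2 microglia genes, 2 ependymal genes, 1 endothelial gene, 1 choroid plexus gene and 2 cortical excitatory genes were higher, and 3 cortical excitatory genes, 1 smooth muscle gene and 1 erythroid gene were lower. Of all tested genes 4.94% were higher and 4.49% lower at that level. No gene of any list was at 0 in all libraries.

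The 31 fibroblast genes summed to between 16737 and 29711 normalized counts in L192P and between 15544 and 19859 in WT, with L192P replicate 1 inside the WT range and the other 3 above it. Ptgds, which was not called, made up between 57.5% and 67.7% of this sum, so it mostly reflects 1 gene. The other 52 fibroblast genes summed to between 11533 and 15893 in L192P and between 11489 and 13809 in WT. The sums of the other lists are given in the same order, L192P before WT. The collagen genes summed to between 1627 and 2115 normalized counts in L192P and between 1376 and 2009 in WT, and the choroid plexus genes, led by Ttr, to between 26759 and 54489 and between 27715 and 51686. Endothelial genes ranged from 1064 to 2549 and from 1271 to 2291, pericyte genes from 1838 to 3449 and from 2049 to 3430.0, and border macrophage genes from 581 to 968 and from 611 to 708. Microglia genes ranged from 6795 to 12153 and from 7437 to 9289, and ependymal genes from 734 to 980.1 and from 673 to 798. All of these sums, that of the 31 genes included, overlapped between the genotypes. The cortical excitatory neuron genes summed to between 48472 and 53710 in L192P and to between 53869 and 55922 in WT. Here every L192P library lay below every WT library, L192P replicate 1 only just below WT replicate 1. The part of these neuron genes in the difference of the fibroblast genes was not tested.

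**Figure D4:**
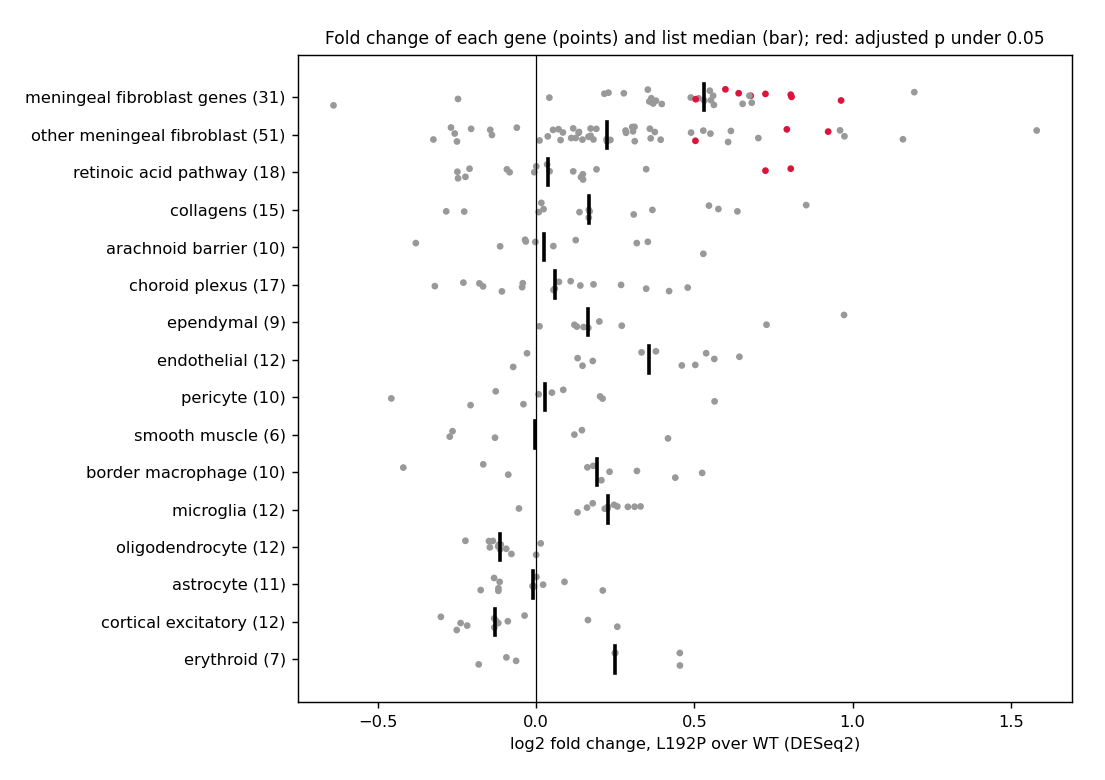
Each point is the DESeq2 log2 fold change of L192P over WT (horizontal axis) of 1 tested gene, the bar is the median of its list, and red marks an adjusted p under 0.05, with the number of tested genes in brackets. The meningeal fibroblast genes have the highest median (0.53), followed by the endothelial genes (0.36), in which no gene was called.

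Mean log2 levels per library, centred per gene and averaged over a list, were taken as a score. For the 31 genes this score was -0.12, 0.32, 0.53 and 0.17 in L192P replicates 1 to 4 and -0.19, -0.06, -0.37 and -0.29 in WT replicates 1 to 4. L192P replicate 1 was thus lower than WT replicate 2. The choroid plexus score was -0.19, 0.33, 0.51 and -0.52 in L192P and 0.08, 0.54, -0.30 and -0.46 in WT. It lay near the fibroblast score in L192P replicates 1 to 3 and WT replicate 3, and apart from it in L192P replicate 4 and WT replicate 2. The endothelial score was -0.90, 0.26, 0.60 and 0.58 in L192P and -0.77, 0.25, -0.32 and 0.29 in WT, lowest in replicate 1 of both genotypes. Among the L192P libraries the fibroblast score was lowest in replicate 1 and highest in replicate 3. So were the scores of the other fibroblast, collagen, retinoic acid, endothelial, pericyte, smooth muscle, microglia, ependymal, erythroid, astrocyte and oligodendrocyte lists. The arachnoid barrier and choroid plexus scores were lowest in replicate 4, and the border macrophage score was highest in replicate 2. The cortical excitatory score ran the other way, highest in replicate 1 (0.01) and lowest in replicate 3 (-0.11). The part of these cell types in the fibroblast values was not tested.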

How the data were processed

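Cortical mRNA was sequenced as stranded libraries, 4 from L192P heterozygous and 4 from WT mice. The kit is TruSeq Stranded mRNA per the labels and Illumina Stranded mRNA Prep in the study's methods, which also name 2 sequencing sites without assigning libraries to them. Per the labels and the methods, reads were aligned with STAR (2.7.9a in the submitters' processing notes) to GRCm39 and tallied per gene with featureCounts (1.5.1), and the authors deposited raw counts per library. The strand setting and the annotation release are not given in the sources used here. A further deposited table holds a normalized signal, each count divided by a DESeq2 size factor (version 1.40.2 in those notes), and recomputing it from the counts gave the same values with a largest difference of 3.49e-10.

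The test was DESeq2 1.42.0 (R 4.3.3) on the counts across all genes, with a model of genotype alone, median-of-ratios scaling, Cook's filter as the default sets it, and independent filtering at 0.05. The threshold for a call was 0.05 after Benjamini-Hochberg adjustment. Fold changes are unshrunken, and 95% intervals are from the Wald standard error. edgeR 4.0.16 and limma 3.58.1 were alternatives. Exact two-sided permutation tests used the normalized counts and exchanged libraries without regard to replicate number. Programs were tested on simulated counts. Library pairs of 1 genotype differed beyond sampling noise (chi-square per degree of freedom 5.52 to 22.6). Over the 13422 genes averaging at least 50 normalized counts, departures from the genotype mean correlated between same-numbered libraries at 0.63, 0.38, 0.23 and 0.33 for replicates 1 to 4, and between other pairs at -0.38 to 0.14, so the numbers were taken to pair the libraries.

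The 31 members, the further lists and the naming rule were chosen with earlier results of these data known. Values in every library are given for members with an unadjusted p under 0.05 and for the most abundant member of each role group, and some further members are described by range. Gene positions and merged exon lengths are from GENCODE M39 on GRCm39, and promoter sequences from RefSeq on GRCm38.p6.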

Additional observations from a re-analysis of the deposited data

Results flagged for a closer look

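Each gene and list score was checked within each genotype for 1 library apart from the remaining 3, by Dixon's ratio of its gap to the range of all 4 (95% critical value). Of 94 groups checked 7 stood apart, and chance gives about 4.7.

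In WT replicate 4, Efemp1 stood at 213 normalized counts while the remaining WT libraries ran from 160.3 to 164, and Aldh1a2 had 180.3 against 237 to 244. Fbln1 was high in WT replicate 2, at 210.1 normalized counts against 155 to 160.3, and so was Ptgds, at 12316 against 9845 to 10262. Emp1 was low in L192P replicate 1, with 14.9 normalized counts against 30.7 to 33.5. Among list scores, microglia were low in WT replicate 1 (-0.29 against -0.04 to 0.0056) and erythroid genes were low in L192P replicate 1 (-0.50 against 0.21 to 0.30). The causes were not tested.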

How the results depend on the processing

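Over 19 alternatives, the count of called fibroblast genes of 31 was 8 with all libraries and moved to 0 with edgeR, limma-voom and limma-trend with either pseudocount (1 or 10), to 5 with independent filtering off and to 4 with the replicate block. Leave-one-out fits gave between 1 and 11. With independent filtering off, 197 of all 32664 genes with an adjusted p were called. The count of all called genes, 253, moved to 53 with edgeR, 45 with limma-voom, 51 and 52 with limma-trend, 533 with the replicate block and 500 without both replicate 1 libraries, and leave-one-out fits gave 112 to 496. Of 575 recomputed fold changes of the 31 genes, 5 reversed, all of Igfbp2, at -0.0037 with limma-voom and from -0.11 to 0.26 over the leave-one-out fits, 4 of which were below 0. The median log2 fold change of the 31 genes moved by less than the spread between libraries (SD 0.214) throughout. With total-count size factors the median of all genes was 0.026. The causes were not tested. Low counts limit Nnmt, Slc47a1, Emp1, Lum and Foxc2, all under 50 normalized counts.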
